A study of Bos taurus with 12 samples.

Results

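The genes that copy DNA and supply its building blocks were followed in bovine endometrium, the lining of the uterus, over 14 days after intrauterine treatment with povidone-iodine (PVP-I), an antiseptic that releases iodine. The list held 41 genes, and a gene counted as measured where a probe of the array carried its symbol. Probes were found for 36 of the 41 genes, 83 probes of the 43622 measured on the array. Those 43622 had 25483 different names, taken from the RefSeq symbol where a probe had one and otherwise from the gene name column. The brightest probe of a gene, by its mean over all arrays, stood for the gene. For 34 genes the scanner software had called that probe well above background on 3 or more of the 12 arrays, and these 34 were tested. For CLSPN, an adaptor of the replication checkpoint, and POLE, the catalytic subunit of a leading-strand polymerase, the brightest probe was well above background on 1 array each, and no change was tested.

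RNA came from biopsies of 3 cows labelled as fertile, each sampled on day 0, day 2, day 7 and day 14 after PVP-I, with left and right uterine horns biopsied in turn. Each of the 4 groups therefore holds the same 3 animals, each on 1 one-colour array, and all groups are of treated cows. The labels give no age or breed, no stage of the oestrous cycle, and no statement of whether the day 0 biopsy preceded the antiseptic. Without an untreated cow, treatment, time, cycle stage and repeated biopsy cannot be told apart. The tissue was whole endometrium, so fewer cells of a kind and less RNA per cell cannot be told apart either. Of 8 listed markers each of epithelium and stroma, 8 and 8 were above background and kept, so markers of both parts of the labelled tissue were present.

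Array and sample were matched through the deposited value table, because its columns and the linked scanner files name different samples for 10 of the 12 arrays. By the table, each slide holds 1 cow in the order of days, so that cow and slide are 1 factor, and so are day and position on the slide. By the file links, 0 genes of the list passed by limma in any comparison of days, and at most 1 per comparison had an unadjusted p under 0.05. The share of probes well above background was 71.3 to 76.0% on 11 arrays and 63.2% on the day 2 array of cow 3.

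Before a cell divides it licenses its replication origins: the origin recognition complex, CDC6 and CDT1 load the ring of MCM proteins onto DNA, and geminin (GMNN) blocks a second round. Cyclin E kinases and E2F1 then drive entry into S phase, CDC45 and the GINS complex turn the MCM ring into an active helicase, and primase, polymerases, the PCNA clamp and its loader, FEN1 and LIG1 build the new strands. Ribonucleotide reductase (RRM1 and RRM2), thymidine kinase (TK1) and thymidylate synthase (TYMS) supply the deoxynucleotides, and most of these genes are known targets of E2F factors in dividing cells. The endometrium renews its epithelium by division after injury and over the oestrous cycle.

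The sequences below are those whose probes carried the main results, and each is 30 of the 60 bases of a probe, 5′ to 3′, as given in the scanner files. The 3 probes for RRM2 read separate stretches of the transcript, while those for PRIM1 and for POLE2 partly read the same bases. Capitals mark bases that are also in another probe of the same gene.
RRM2, brightest probe: aatacggatattgagtactgcacaagtgtt
RRM2, second probe: accacaaggctgtaggaagacatcagactc
RRM2, last probe: tgaattgcactttgatgaagcagtacattg
CDC6, brightest probe: cgatggagtcttcattttagtactttatac
TK1, brightest probe: gcttgtcttctaaggaggtgggggctgtgt
TYMS, brightest probe: ctaaatctgagcaagctgggtaacacccat
PRIM1, brightest probe: CAGATTCCTGGAAGGAGCAATAATGGGAGG
PRIM1, second probe: caaaggaaaatgttCAGATTCCTGGAAGGA
POLE2, brightest probe: tagaagatagcaaaCTTCAAGGGTTTTGAG
POLE2, second probe: CTTCAAGGGTTTTGAGATTCTTAGACCATC

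The longest run shared by any pair of the 3 RRM2 probes was 7 bases. The PRIM1 pair shared a run of 32 bases and the POLE2 pair one of 46, so that those pairs are not separate readings of their transcripts. On the Btau_3.1 build given in the scanner files, the RRM2 probes lie at chr11:90263212-90263271, chr11:90264660-90264719 and chr11:90265325-90265384, all on the minus strand. Exon and UTR annotation of that build was not used here.

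On day 2, 3 of the 34 genes had risen over day 0 and 0 had fallen: RRM2 and TK1, which make deoxynucleotides, and the origin licensing factor CDC6. On day 7, 6 had risen (RRM2, CDC6, the helicase genes MCM6 and MCM10, cyclin E1 gene CCNE1, and UHRF1, which maintains DNA methylation behind the fork) and 3 had fallen (TYMS, the primase gene PRIM1 and the polymerase subunit gene POLE2). On day 14, RRM2 alone of the 34 had risen and 0 had fallen. Genes of nucleotide synthesis thus passed in both directions, and both polymerase genes that passed had fallen. The 3 falls on day 7 were 8.82% of the 34 genes, near the 7.91% of all probes called lower that day.

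These calls come from limma (cow as block, Benjamini-Hochberg adjustment over 33539 probes, threshold 0.05). On day 2, 8.82% of the 34 genes were called higher, against 1.63% of all probes tested, and 0.0% lower, against 0.894%. On day 7 these shares were 17.6% against 10.3% higher and 8.82% against 7.91% lower. On day 14 they were 2.94% against 0.0596% higher and 0.0% against 0.0567% lower. CDC6 was kept for testing only through arrays of the later days. Of the 34 genes, 14 (41.2%) had an unadjusted p under 0.05 on day 2, 18 (52.9%) on day 7 and 14 (41.2%) on day 14. Over all probes these shares were 20.9%, 35.1% and 20.5%. The 3 comparisons share the day 0 arrays, so a gene's changes on the 3 days are not separate evidence. Without cow 1, or without cow 2, 0 of the 34 genes passed in any comparison of days (8 and 10 had an unadjusted p under 0.05 on day 2, 9 and 12 on day 7). The loss was that of the whole array: 0 of the 33539 probes passed in any comparison without cow 1, and without cow 2 the calls were 213 probes (0.635%) on day 7 and 0 in the others. Without cow 3, 3 of the genes passed on day 2, 7 on day 7 and 0 on day 14, against 2.51%, 18.6% and 0.0% of all probes. The split of higher against lower calls moved with the scaling: quantile scaling gave 3 against 1 on day 2, and normexp correction with quantile normalisation gave 4 against 1 on day 2 and 6 against 6 on day 7. The split of all probes moved too. On day 2 it was 546 against 300, 457 against 289 with quantile scaling and 538 against 445 with normexp. On day 7 it was 3446 against 2654, and 3207 against 3059 and 3275 against 3369 with these settings.

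Counted by cow rather than by test, 15 of the 34 genes were higher in 3 of 3 cows on day 2 (27.5% of all probes), 18 on day 7 (28.4%) and 20 on day 14 (23.7%). Lower in 3 of 3 cows were 3 genes on day 2 (26.5% of all probes), 8 on day 7 (25.2%) and 5 on day 14 (19.7%). The median log2 change of the 34 genes was 0.41 on day 2, 0.30 on day 7 and 0.44 on day 14, against 0.00, 0.04 and 0.05 over all probes. The cows differed: on day 2 the median was 0.63 in cow 1, 0.43 in cow 2 and -0.10 in cow 3, where 15 of the 34 genes were above their day 0 level. On day 7 the medians were 0.39, 0.19 and 0.25, and on day 14 they were 0.20, 0.59 and 0.51. Cow 3 thus stood below the other cows on day 2, the array with the lowest share of probes above background, and without that array the day 2 median was 0.58. It was 0.20 without cow 1 and 0.23 with normexp and quantile normalisation. Whether that share plays a part was not tested.

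**Figure D1:**
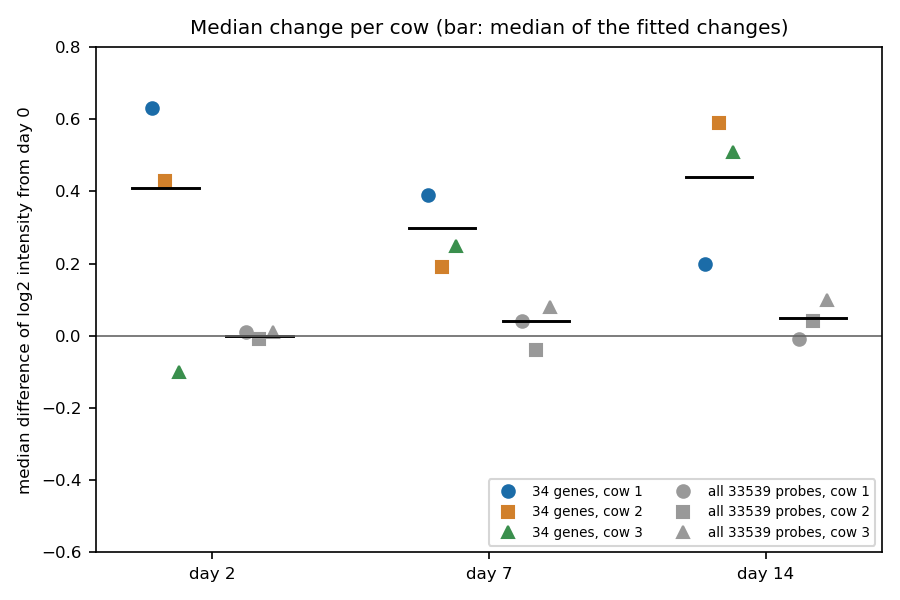
Median difference of log2 intensity from day 0 (vertical axis) in each cow on days 2, 7 and 14, for the 34 genes (coloured) and for all 33539 probes (grey); black bars are medians of the fitted changes. On day 2 cow 3 sits at -0.10, below cows 1 and 2 at 0.63 and 0.43, while all probes stay between -0.04 and 0.10 on the 3 days.

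**Figure D2:**
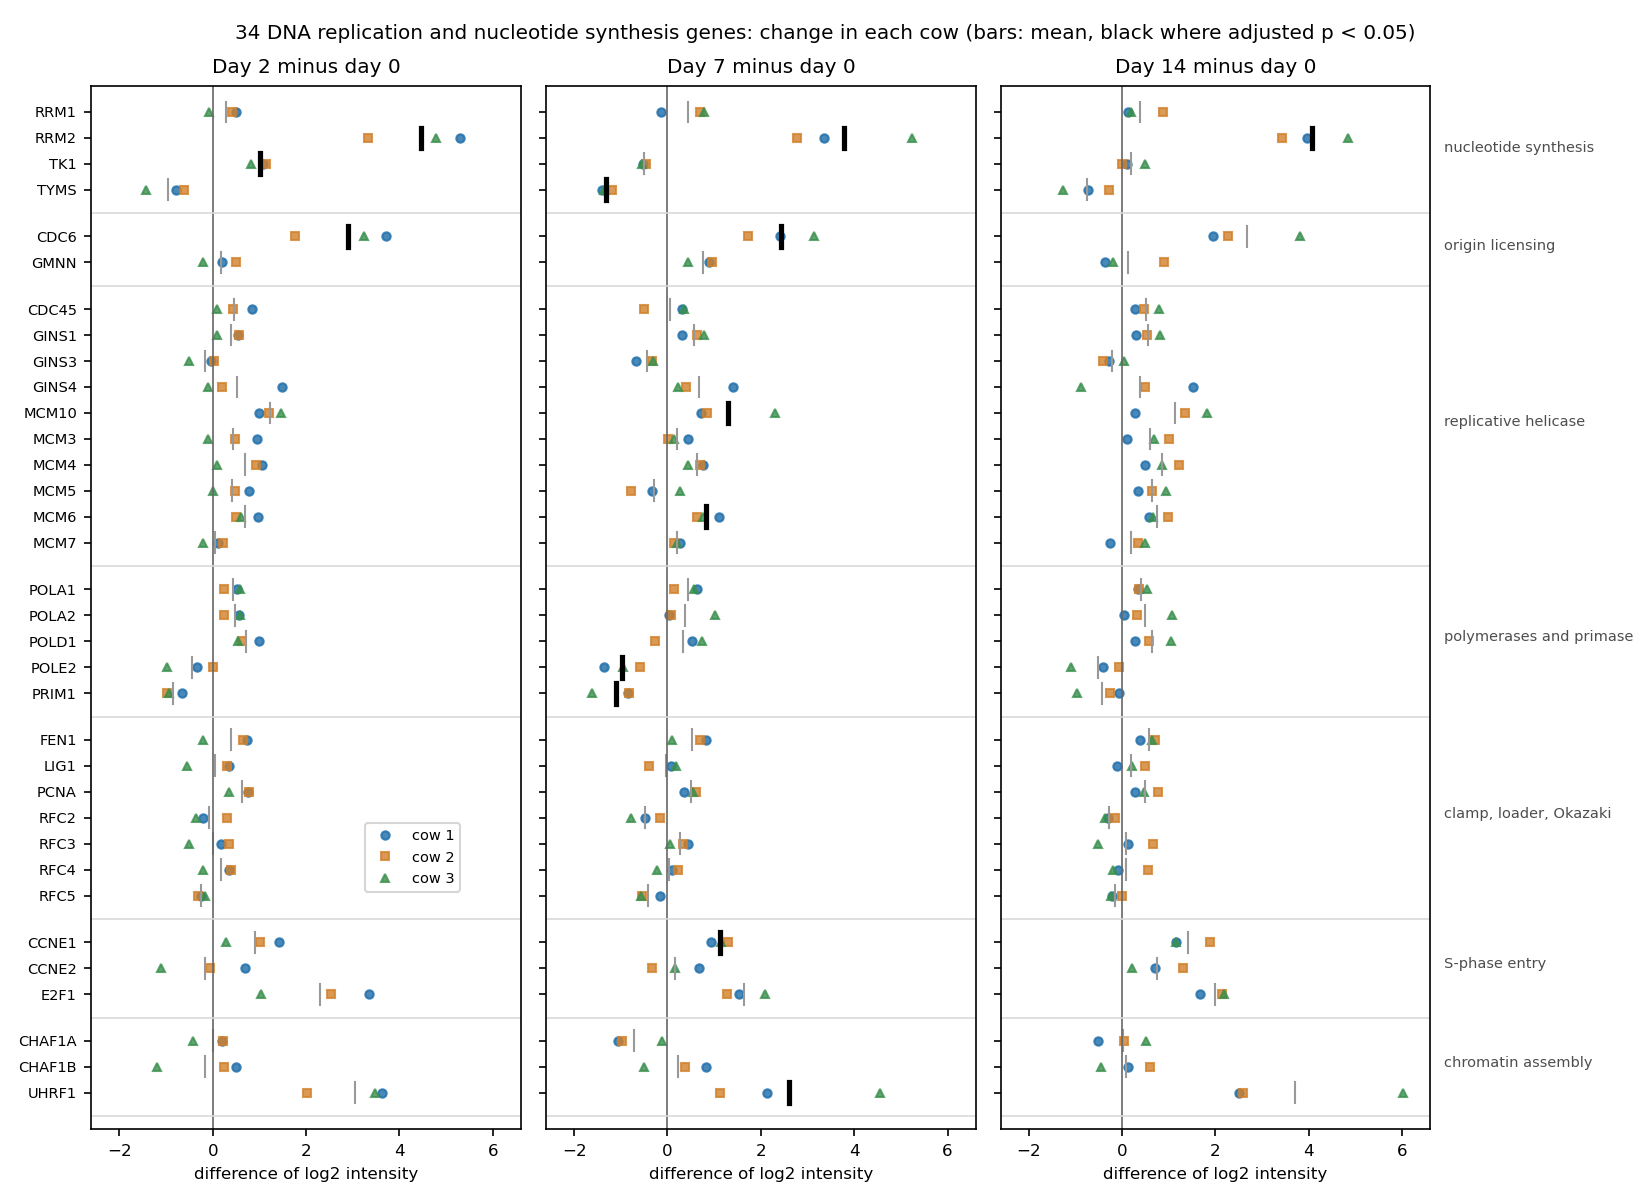
Difference of log2 intensity from day 0 (horizontal axis) for the 34 genes, ordered by role, in each of 3 cows on days 2, 7 and 14; the vertical bar is the mean and is black where the limma adjusted p was under 0.05. RRM2, CDC6, E2F1 and UHRF1 lie far to the right on all 3 days, and TYMS, PRIM1, POLE2, RFC5, RFC2 and GINS3 have means to the left of 0 on all 3.

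Among the genes of nucleotide synthesis, RRM2 had the largest fitted rise on each of the 3 days, though the rise of CDC6, below background on day 0, has only a lower bound, and TYMS the largest fall on day 7. RRM2 encodes the small subunit of ribonucleotide reductase, which turns ribonucleotides into deoxyribonucleotides. On the log2 scale, relative to the 75th percentile of each array, its signal on day 0 was -4.76 in cow 1, -3.05 in cow 2 and -6.04 in cow 3. The day 2 signals in the same order of cows were 0.54, 0.28 and -1.25, the day 7 signals -1.40, -0.28 and -0.81, and the day 14 signals -0.80, 0.37 and -1.20. All 9 later values were above all 3 values of day 0. RRM2 rose by 4.47 ± 0.49 (SE, n = 3 cows) on day 2 (adjusted p = 0.0116, limma), by 3.79 ± 0.49 on day 7 (adjusted p = 0.00417) and by 4.07 ± 0.49 on day 14 (adjusted p = 0.044). As folds these were 22.2, 13.8 and 16.8. The other probes gave 4.99 and 4.91 on day 2. Their day 7 changes were 4.06 and 4.09, and their day 14 changes 4.24 and 4.20. Both passed on days 2 and 7 and neither on day 14 (adjusted p = 0.05 and 0.0545, limma), and on day 0 they were above background on 2 and 1 of 3 arrays. The day 14 call was lost without the cow block (adjusted p = 0.0628), with no filter on dim probes (adjusted p = 0.0501) and with the mean of all probes (4.17, adjusted p = 0.05), and normexp with quantile normalisation gave 3.16, 2.57 and 2.92, all called.

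RRM1, the large subunit of the same enzyme, did not pass on any day. Its log2 change was 0.28 ± 0.27 on day 2, 0.45 ± 0.27 on day 7 and 0.39 ± 0.27 on day 14. The difference between the subunits' changes was not tested.

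TK1, the enzyme that salvages thymidine, was high on day 2 and low on day 7. Its probe (chr19:55568869-55568928 of Btau_3.1, plus strand) read 2.52, 2.72 and 2.70 on day 0 in cows 1, 2 and 3, and 3.60, 3.86 and 3.52 on day 2. It read 1.99, 2.26 and 2.17 on day 7 and 2.62, 2.72 and 3.20 on day 14. All 3 values of day 2 lay above, and all 3 of day 7 below, those of day 0, whereas day 14 overlapped day 0. TK1 rose by 1.01 ± 0.17 on day 2 (adjusted p = 0.0304, limma) and was -0.51 ± 0.17 from day 0 on day 7 (adjusted p = 0.0785). From day 2 to day 7 it fell by 1.52 ± 0.17 on the log2 scale, a 2.86-fold difference (adjusted p = 0.029), lower in 3 of 3 cows. It was the 1 gene of the 34 called between those days (0.486% of all probes). A second TK1 probe gave 1.05 on day 2 and -0.61 on day 7, neither called.

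TYMS, which makes thymidylate from deoxyuridylate, was lower on every later day. Its values (probe at chr24:36769801-36769860, plus strand) were 3.62, 3.47 and 3.85 on day 0 and 2.83, 2.85 and 2.41 on day 2 in cows 1, 2 and 3. They were 2.22, 2.28 and 2.49 on day 7 and 2.89, 3.19 and 2.59 on day 14. No later value reached the lowest of day 0. TYMS fell by 1.32 ± 0.21 on day 7 (adjusted p = 0.00832, limma), a 2.49-fold difference. The changes of -0.95 ± 0.21 on day 2 (adjusted p = 0.0595) and -0.76 ± 0.21 on day 14 (adjusted p = 0.117) did not pass, and the day 2 change did with quantile scaling (adjusted p = 0.0473). RRM2 and TYMS correlated at -0.70 over the 12 arrays, which share slides and day groups, while TK1 correlated with neither beyond 0.28.

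**Figure D3:**
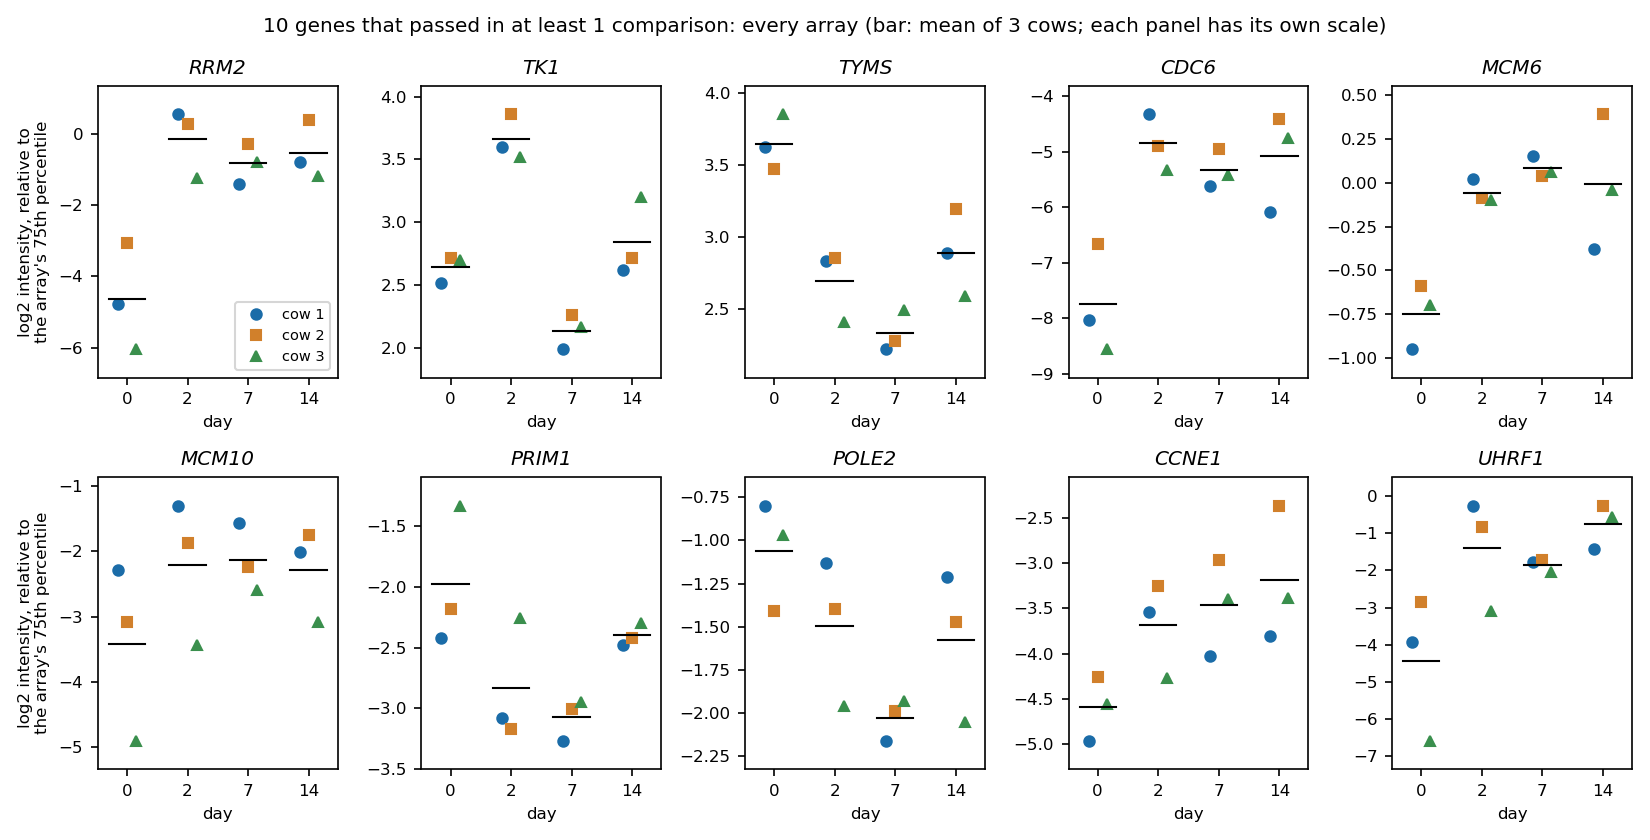
Log2 intensity relative to the array's 75th percentile (vertical axis, its own scale in each panel) on days 0, 2, 7 and 14 for the 10 genes that passed in at least 1 comparison of days; each point is 1 cow and the bar is the mean of 3. For RRM2, CDC6 and MCM6 every later point lies above the day 0 points, for TYMS every later point lies below, and TK1 is highest on day 2 and lowest on day 7.

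Among the licensing genes, CDC6, which loads the MCM ring, rose on days 2 and 7. It was not well above background on any day 0 array, where its probe (chr19:41810925-41810984, plus strand) read -8.03, -6.66 and -8.56 in cows 1, 2 and 3. It read -4.32, -4.90 and -5.32 on day 2. The day 7 values were -5.61, -4.94 and -5.42, and the day 14 values -6.09, -4.40 and -4.74. Its 3 values of each later day lay above all of day 0. Because day 0 has only a bound, CDC6 was at least 3.15-fold higher on day 2 and at least 2.26-fold higher on day 7. The bound was the lowest signal of a probe well above background, or the probe's own where higher. On day 14 it gave 2.68-fold. The limma tests used the day 0 signals as read, not the bound (adjusted p = 0.0272 on day 2, 0.0139 on day 7 and 0.0619, not called, on day 14). The probe was well above background on 2, 3 and 3 arrays of days 2, 7 and 14. Only those days thus carried it past the filter on dim probes. The size rests on the background correction: normexp with quantile normalisation gave a log2 change of 0.62 on day 2 (adjusted p = 0.0499) and 0.40 on day 7 (adjusted p = 0.07), against 2.90 and 2.43.

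GMNN, the inhibitor of licensing, was not called. Its log2 change was 0.17 ± 0.25 on day 2, 0.76 ± 0.25 on day 7 (adjusted p = 0.0728, limma, higher in 3 of 3 cows) and 0.12 ± 0.25 on day 14. The origin recognition genes ORC1 and ORC6 were measured by probes with the older names ORC1L and ORC6L, outside the 36 genes. ORC1L read -6.54, -6.13 and -6.97 on day 0 and -3.52, -3.91 and -5.64 on day 2 in cows 1, 2 and 3. It rose by 2.19 ± 0.45 on day 2 (adjusted p = 0.047, limma) and by 1.89 ± 0.45 on day 7 (adjusted p = 0.0254), and it was above background on 1 of 3 arrays on day 0. ORC6L did not pass, at 0.68 ± 0.35 on day 2 and 0.78 ± 0.35 on day 7, and its changes in cow 3 alone were 1.56 and 1.67. CDT1 was not analysed here.

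Of 10 helicase genes tested, 2 rose on day 7, and 0 were called on day 2 or day 14, when 3 and 4 had an unadjusted p under 0.05. MCM6, a subunit of the MCM ring (probe at chr2:64484680-64484739, plus strand), read -0.95, -0.59 and -0.70 on day 0 and 0.15, 0.04 and 0.06 on day 7 in cows 1, 2 and 3. It read 0.02, -0.09 and -0.10 on day 2, and -0.38, 0.39 and -0.04 on day 14. All later values were above all of day 0, and the SD over cows was 0.06 on day 2 and on day 7. MCM6 rose by 0.83 ± 0.19 on day 7 (adjusted p = 0.0232, limma), a 1.78-fold difference, and was 0.69 ± 0.19 above day 0 on day 2 and 0.74 ± 0.19 on day 14.

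MCM10, which binds the helicase as replication begins, read -2.29, -3.08 and -4.90 on day 0 and -1.57, -2.24 and -2.59 on day 7 in cows 1, 2 and 3 (chr13:27448003-27448061, plus strand). The groups overlapped, since cow 1 on day 0 was above cow 3 on day 7, but each cow was higher than its own day 0 level. MCM10 rose by 1.29 ± 0.34 on day 7 (adjusted p = 0.036, limma). Cow 3 had the largest change, and without it the change was 0.78 (adjusted p = 0.119). Without the cow block the adjusted p was 0.251, and with no filter on dim probes 0.05, not under the threshold. The other MCM10 probes, read on the same arrays, gave 1.20 (adjusted p = 0.0302, limma) and 1.09 (adjusted p = 0.071, not called) on day 7.

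The remaining helicase genes did not pass by their brightest probes. MCM3 was 0.44 ± 0.30, 0.21 ± 0.30 and 0.60 ± 0.30 above day 0 on days 2, 7 and 14. MCM4 was 0.69 ± 0.25 above day 0 on day 2, 0.63 ± 0.25 on day 7 and 0.85 ± 0.25 on day 14, and its 5 probes gave the same sign on each of the 3 days. MCM5 was 0.42 ± 0.30 on day 2, -0.28 ± 0.30 on day 7 and 0.63 ± 0.30 on day 14. MCM7, another subunit of the ring, was within 0.20 of day 0 on all 3 days. A second MCM7 probe gave 0.26, 0.36 and 0.86 on days 2, 7 and 14, none called. GINS1 was 0.39 ± 0.20, 0.57 ± 0.20 and 0.55 ± 0.20 above day 0 on days 2, 7 and 14, and 1 of its 3 probes passed on day 7. CDC45 was 0.46 ± 0.27, 0.05 ± 0.27 and 0.51 ± 0.27. GINS3 had negative means, with -0.44 ± 0.20 on day 7, and GINS4 was well above background on 5 of the 12 arrays. GINS2 and MCM2, named in the files by transcript identifiers and outside the 36 genes, did not pass. GINS2 was 1.62 ± 0.43 above day 0 on day 2 (adjusted p = 0.0862, limma), and MCM2 was 1.20 ± 0.27 above it on day 14 (adjusted p = 0.0814). Over the 10 helicase genes the median log2 change was 0.45 on day 2, 0.39 on day 7 and 0.57 on day 14.

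The polymerase genes went in different directions. PRIM1, the catalytic subunit of primase, which lays the RNA primer, read -2.42, -2.18 and -1.33 on day 0 and -3.27, -3.01 and -2.95 on day 7 in cows 1, 2 and 3 (chr5:61295491-61295550, plus strand). On day 2 it read -3.08, -3.17 and -2.26, and on day 14 -2.48, -2.42 and -2.30. Day 7 lay wholly below day 0, and days 2 and 14 overlapped it. PRIM1 fell by 1.10 ± 0.22 on day 7 (adjusted p = 0.0145, limma), a 2.15-fold difference. Another probe, which shares at most 8 bases with the others, gave -0.98 on day 7 and was not called (adjusted p = 0.0817).

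POLE2, the small subunit of polymerase epsilon, read -0.80, -1.41 and -0.97 on day 0 and -2.16, -1.99 and -1.93 on day 7 in cows 1, 2 and 3. It read -1.13, -1.40 and -1.96 on day 2 and -1.21, -1.47 and -2.05 on day 14. Day 7 lay below all of day 0, and the other days overlapped it. POLE2 fell by 0.97 ± 0.25 on day 7 (adjusted p = 0.0348, limma), a 1.96-fold difference, and the call was lost with no filter on dim probes (adjusted p = 0.0508). Its brightest probe spans 3447 bases of the genome (chr10:42747019-42750465, minus strand), so its 60 bases are split there.

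POLA1, POLA2 and POLD1, subunits of the priming polymerase alpha and of the lagging-strand polymerase delta, had positive means on each day and did not pass. POLA1 was 0.44 ± 0.15, 0.45 ± 0.15 and 0.41 ± 0.15 above day 0 on days 2, 7 and 14, higher in 3 of 3 cows each time. POLA2 was 0.47 ± 0.24, 0.38 ± 0.24 and 0.48 ± 0.24, also in 3 of 3 cows. POLD1 was 0.72 ± 0.27 on day 2, 0.34 ± 0.27 on day 7 and 0.63 ± 0.27 on day 14. PRIM1 and POLA1 work in the same complex, and their changes on day 7 had opposite signs in 3 of 3 cows.

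None of the 7 genes of the clamp, the clamp loader and Okazaki fragment joining passed on any day by limma (1, 3 and 2 had an unadjusted p under 0.05 on days 2, 7 and 14), and their median log2 change was 0.04 on day 2, 0.04 on day 7 and 0.09 on day 14. PCNA, the sliding clamp and a common marker of dividing cells, read 2.43, 2.61 and 2.62 on day 0 and 3.19, 3.38 and 2.97 on day 2 in cows 1, 2 and 3, with no overlap. Its change was 0.62 ± 0.17 on day 2 (adjusted p = 0.091, limma), 0.51 ± 0.17 on day 7 and 0.50 ± 0.17 on day 14, higher in 3 of 3 cows each time. FEN1, the flap nuclease, was 0.39 ± 0.24, 0.53 ± 0.24 and 0.58 ± 0.24 above day 0. By their brightest probes the loader genes lay near or below day 0: RFC2 was -0.48 ± 0.17 and RFC5 -0.42 ± 0.16 on day 7. A second RFC2 probe gave 0.25, -0.09 and 0.36 on days 2, 7 and 14, none called. RFC3 and RFC4 were within 0.27 of day 0 on all 3 days. LIG1, the ligase, was within 0.20, and its 4 probes disagreed in sign on days 2 and 7.

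Of the 3 genes of S-phase entry, CCNE1 rose on day 7. It encodes cyclin E1, the partner of the kinase that starts S phase. CCNE1 (chr18:39564231-39564290, plus strand) read -4.96, -4.26 and -4.55 on day 0 and -3.54, -3.25 and -4.27 on day 2 in cows 1, 2 and 3. Its day 7 values were -4.02, -2.97 and -3.40, and its day 14 values -3.80, -2.37 and -3.39. Days 7 and 14 lay above all of day 0, and on day 2 cow 3 was just below the highest value of day 0. CCNE1 rose by 1.13 ± 0.27 on day 7 (adjusted p = 0.0276, limma) and was 1.41 ± 0.27 above day 0 on day 14 (adjusted p = 0.0689). The day 7 call was lost without the cow block (adjusted p = 0.0999). With normexp and quantile normalisation the day 7 change was 0.51 (adjusted p = 0.0476, limma), still called. CCNE2, the other cyclin E, was -0.16 ± 0.39, 0.17 ± 0.39 and 0.74 ± 0.39 from day 0.

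E2F1, the transcription factor, had large changes that did not pass. Its brightest probe read -5.68, -5.04 and -5.68 on day 0 and -2.35, -2.51 and -4.64 on day 2 in cows 1, 2 and 3. Its day 7 values were -4.15, -3.76 and -3.60, and its day 14 values -4.01, -2.89 and -3.49. All later values were above all of day 0. The change was 2.30 ± 0.51 on day 2 (adjusted p = 0.0564, limma), 1.63 ± 0.51 on day 7 (adjusted p = 0.0583) and 2.00 ± 0.51 on day 14. Without the day 2 array of cow 3 it passed on day 2 (3.04, adjusted p = 0.0317) and on day 7 (adjusted p = 0.00982). Normexp with quantile normalisation gave smaller changes of 1.09, 0.66 and 0.86 on days 2, 7 and 14. The mean of the E2F1 probes gave 1.37 on day 2 and 0.70 on day 7. None of these passed. The other E2F1 probe gave 0.44, -0.24 and 0.19, so the 2 probes do not give the same account of this gene.

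UHRF1 was the 1 gene called of the 3 tested for chromatin assembly behind the fork. Its probe (chr7:17793445-17793504, minus strand) read -3.91, -2.84 and -6.58 on day 0 and -0.28, -0.82 and -3.10 on day 2 in cows 1, 2 and 3. Its day 7 values were -1.78, -1.71 and -2.03, and its day 14 values -1.41, -0.26 and -0.57. Days 7 and 14 lay above all of day 0, while cow 3 on day 2 overlapped it, and the probe was above background on 2 of the 3 day 0 arrays. UHRF1 rose by 2.60 ± 0.74 on day 7 (adjusted p = 0.045, limma) and was 3.04 ± 0.74 above day 0 on day 2 (adjusted p = 0.0729) and 3.70 ± 0.74 on day 14 (adjusted p = 0.071). Cow 3 had the largest change on day 7, and without it the value was 1.63 (adjusted p = 0.0638). The call was also lost without the cow block (adjusted p = 0.0877), with no filter on dim probes (adjusted p = 0.0588) and with array weights (1.77, adjusted p = 0.108). All 4 UHRF1 probes gave positive changes, from 2.15 to 3.04 on day 2, 1.77 to 2.60 on day 7 and 2.85 to 3.70 on day 14. Of these probes, read on the same arrays, 1 passed on day 2 (adjusted p = 0.0424, limma), 4 on day 7 and 0 on day 14. The chromatin assembly factor genes CHAF1A and CHAF1B did not pass, with CHAF1A at -0.72 ± 0.32 on day 7.

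**Figure D4:**
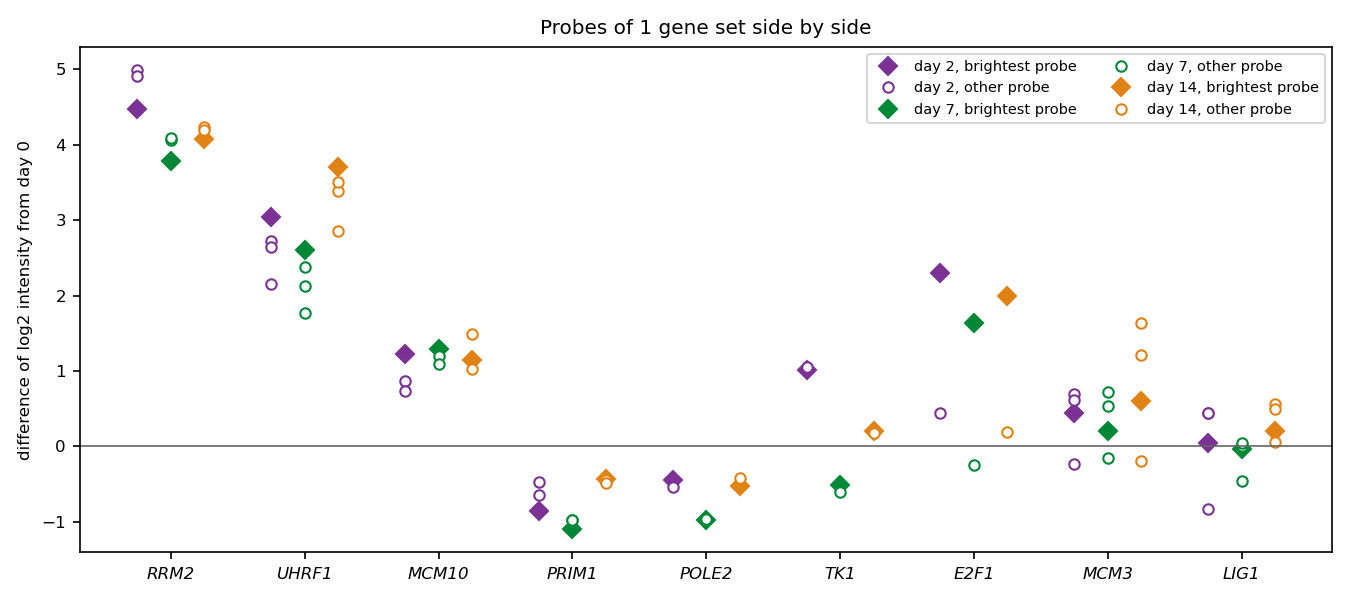
Difference of log2 intensity from day 0 (vertical axis) for each probe of 9 genes on days 2, 7 and 14; diamonds are the brightest probe and open circles the other kept probes. The probes of RRM2, UHRF1, MCM10, PRIM1, POLE2 and TK1 lie on 1 side of 0 together, whereas those of E2F1 differ by up to 1.87 and those of MCM3 and LIG1 fall on both sides. The MCM3 probe below 0 carries the description of another gene.

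Among the 24 genes with more than 1 kept probe, all probes had the same sign for 18 on day 2, 18 on day 7 and 19 on day 14, with a median spread between a gene's probes of 0.36, 0.29 and 0.28. The largest disagreements were E2F1 and, on day 14, MCM3 (1.82). A probe named MCM3 that went the other way carries the description of another gene in the scanner files, and it was not the brightest. The sign counts and the MCM3 spread include it, and the other probes named MCM3 had positive changes on each day.

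Over the 4 days together, 4 of the 34 genes differed by limma's F-test (7.82% of all probes): RRM2 (adjusted p = 0.0105), TK1 (adjusted p = 0.0153), CDC6 (adjusted p = 0.0274) and TYMS (adjusted p = 0.0353). Without the day 2 array of cow 3 the count was 7, where all probes went to 9.04%. From day 7 to day 14, 0 of the 34 genes were called by limma (0.146% of all probes) and 6 (17.6%) had an unadjusted p under 0.05, against 18.0% of all probes. From day 2 to day 14, 0 were called (0.0% of all probes) and 2 (5.88%) had an unadjusted p under 0.05, against 12.6% of all probes. From day 2 to day 7, 21 of the 34 fitted changes were negative, with a median of -0.13, and the cows went apart: 8 genes were higher in cow 1, 9 in cow 2 and 27 in cow 3.

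Over the 12 arrays, which share slides and days, 28 of the 34 genes correlated positively with the mean of the other members, given here as a description. The correlation was highest for MCM3 (0.96), MCM4 (0.94) and CDC45 (0.90), none of which passed a test. It was lowest for PRIM1 (-0.48), RFC5 (-0.34) and TYMS (-0.21). RRM2 was at 0.69, and it moved most with CDC6 (0.96) and UHRF1 (0.92) among the 10 called genes. The mean z score of the 34 genes lay between -0.64 and -0.27 on the day 0 arrays and between -0.13 and -0.04 on those of day 7. On day 2 it was 0.62, 0.65 and -0.64 in cows 1, 2 and 3, and on day 14 it was -0.27, 1.01 and 0.24. Of the 10 genes outside the list with the pattern most like that mean, 2 have no gene symbol and the others were CHEK1, CENPP and CDK1 (r = 0.95 each), MIS18A (0.94), and CDC25C, NCAPG2, SMC4 and SGO1 (0.93 each).

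The wider pathway was counted in 4 lists. Of 24 other genes of nucleotide synthesis, 1 rose on day 2 and 7 on day 7, with 0 lower and 0 on day 14. Over all probes 1.63% were called higher and 0.894% lower on day 2, and 10.3% and 7.91% on day 7. CTPS1, which makes CTP, rose by 2.09 ± 0.36 on day 7 (adjusted p = 0.00973, limma). DTYMK, the kinase that follows TK1 and TYMS on the path to dTTP, rose by 1.19 ± 0.23 on day 2 (adjusted p = 0.0401) and by 0.98 ± 0.23 on day 7 (adjusted p = 0.0249), and MTHFD2, of mitochondrial one-carbon metabolism, by 0.94 ± 0.22 on day 7 (adjusted p = 0.0253). Their median log2 change was 0.27 on day 2 and 0.24 on day 7.

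Of 37 other replication genes, 1 rose on day 2, and on day 7 4 rose and 2 (ORC2 and RNASEH2A) fell. With 10.3% of all probes called higher and 7.91% lower on day 7, those day 7 counts were near or below the shares of the array. The histone chaperone gene ASF1B rose by 2.68 ± 0.44 on day 2 (adjusted p = 0.0272, limma) and by 1.86 ± 0.44 on day 7 (adjusted p = 0.0247), and it was above background on 1 of 3 arrays on day 0. WDHD1, which ties the polymerase to the helicase, rose by 0.91 ± 0.18 on day 7 (adjusted p = 0.0136), and HELLS, a chromatin remodeller that works with UHRF1, by 1.20 ± 0.30 (adjusted p = 0.0301). Of 21 genes of E2F and S-phase control, 0 passed on day 2 by limma (6 with an unadjusted p under 0.05). On day 7, 2 of them (CDK2 and CCND2) rose, near the share of all probes. CCNA2, cyclin A2, was 2.14 ± 0.46 above day 0 on day 2 (adjusted p = 0.0529). Of 19 mitosis genes, 2 rose on day 2, against 1.63% of all probes, and 18 had an unadjusted p under 0.05, against 20.9%. On that day 16 were higher in 3 of 3 cows and 0 lower, against 27.5% and 26.5% of all probes. On day 7, 1 mitosis gene rose and 1 fell, neither of these day 7 counts above the share of all probes. BUB1, a spindle checkpoint kinase, rose by 2.16 ± 0.39 on day 2 (adjusted p = 0.0354) and 1.39 ± 0.39 on day 7 (adjusted p = 0.044), while CCNB1, cyclin B1, fell by 2.37 ± 0.36 on day 7 (adjusted p = 0.00654). The median of the mitosis list was 2.24 on day 2, 1.32 on day 7 and 2.51 on day 14, above the medians of the 34 replication genes. No gene of the 4 lists passed on day 14 by limma, where 7 of the nucleotide list, 8 of the replication list, 9 of the E2F and S-phase list and 18 of the mitosis list had an unadjusted p under 0.05, against 20.5% of all probes.

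Markers of other cell types moved over the same days, and their summed level is the log2 of the sum of the markers' linear scaled signals on an array. For 10 macrophage markers it was 3.80 to 4.09 on day 0 (log2), 4.15 to 4.85 on day 2, 3.99 to 5.77 on day 7 and 2.95 to 5.29 on day 14, and 1 rose on day 2 and 3 on day 7. Of 8 neutrophil markers, 5 were kept, with a summed level of -1.34 to -0.03 on day 0, 1.61 to 3.12 on day 2, 0.05 to 2.26 on day 7 and -0.55 to 0.74 on day 14, and S100A12 rose on days 2 and 7. The 8 smooth muscle and pericyte markers summed to 5.93 to 6.39 on day 0, 6.36 to 8.94 on day 2, 7.43 to 8.47 on day 7 and 6.34 to 8.59 on day 14, and 3 rose on day 7. The 8 stroma markers summed to 7.74 to 7.79 on day 0, 7.85 to 8.2 on day 2, 8.0 to 8.26 on day 7 and 7.78 to 8.54 on day 14. None passed by limma, but 6 on day 2, 7 on day 7 and 4 on day 14 were higher in 3 of 3 cows. Over all probes 27.5%, 28.4% and 23.7% were. The 8 epithelial markers summed to 6.0 to 6.33, 5.10 to 6.78, 5.58 to 6.39 and 6.1 to 6.3 on the same days, and none passed. Of 8 ciliated cell markers, 6 were kept, at 3.23 to 4.03 on day 0 and 2.80 to 3.76 on day 2. None passed by limma, but on day 2 all 6 were lower in 3 of 3 cows (median log2 change -1.09, 3 with an unadjusted p under 0.05), as were 4 on day 7 (median -0.85, 1 with an unadjusted p under 0.05). Of 10 T and NK cell markers, 1 rose on day 2 and 2 on day 7, of 8 endothelial markers, 1 and 2, and of 5 kept B and plasma cell markers, 0 and 0. Among all probes, 1.63% were called higher on day 2 and 10.3% on day 7. On day 2, however, 5 of the 10 T and NK markers were lower in 3 of 3 cows and 1 was higher (median log2 change -0.15). On day 7, 1 was lower in 3 of 3 cows and 3 were higher (median -0.01). Over all probes, 26.5% were lower in 3 of 3 cows on day 2 and 25.2% on day 7. The T and NK markers summed to 2.84 to 3.1 on day 0, 2.75 to 2.90 on day 2, 2.72 to 3.95 on day 7 and 2.90 to 3.29 on day 14. Endothelial markers summed to 4.34 to 4.88, 4.65 to 4.78, 4.29 to 4.50 and 4.18 to 4.99 on the same days. The part of these cell types in the changes of the replication genes was not tested.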

How the data were processed

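The data were one-colour Agilent arrays of endometrial RNA, 12 in all, from 3 cows on 4 days. The deposited scanner files hold processed intensity per spot, made by the authors with Agilent Feature Extraction: the file headers name version 11.5.1.1, while the submitters' processing notes name 10.5.1.1. The authors' deposited value table is on a log2 scale, and its columns matched the scanner files (median absolute difference at most 0.00229) and named the samples. The table was followed because 20 probes were at least 8-fold apart between 1 cow and the others by its names, and 0 by the file links. By its names each cow is also 1 slide, so these probes cannot tell a cow from a slide. Which naming is right was therefore not settled. Intensities were log2-transformed, the 75th percentile of each array was subtracted, and spots of a probe were averaged. Of 43653 probes, 31 with outlier flags were left out, and 33539 well above background on at least 3 arrays were kept. Number of arrays limits the precision.

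Days were compared with limma 3.58.1 in R 4.3.3 (day as factor, cow as block, 6 residual degrees of freedom, Benjamini-Hochberg over all kept probes, threshold 0.05), tested on simulated data. The pairing comes from the design text: deviations of arrays of the same cow correlated at a mean of 0.285 over 18 pairs (lowest 0.0235, 15 over 0.1). Arrays of the same cow also share a slide, so this correlation cannot tell cow from slide. Values in every array were given for each gene called in any comparison, and the rest by changes and counts. E2F1, PCNA and ORC1L were added after their values were seen. Up to 3 genes with the smallest F-test p stand for each pathway list. Genes outside the list were ranked by correlation with its mean. The members and lists were chosen with earlier results of these data known. Alternatives were another scaling, normexp background correction with quantile normalisation, the value table, other filters on dim probes, no block, leaving out a cow or the day 2 array of cow 3, the file links, only the days compared, array weights and the mean of a gene's probes. Promoter sequences were not used here.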

Additional observations from a re-analysis of the deposited data

How the results depend on the processing

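Of 14 calls of single genes between days, 14 held with quantile scaling, with the authors' value table and with the stricter filter on dim probes (6 of 12 arrays), 13 with normexp and quantile normalisation, with array weights, with the mean of all probes and without the day 2 array of cow 3, 10 with no filter on dim probes, 10 with no replicate block (cow not in the fit), 4 with only the days compared and 0 by the file links. Leaving out 1 cow kept 0 (cow 1), 0 (cow 2) or 7 (cow 3), and gave 0 to 3 genes called on day 2 (3 with all arrays), 0 to 11 on day 7 (9), 0 to 1 on day 14 (1), 0 to 3 from day 2 to day 7 (1) and 0 to 7 over the 4 days (4), where the day 2 array of cow 3 is among those left out. Fewer cows also leave fewer residual degrees of freedom.

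Without the block for the pairing by cow, 0 genes were called on day 14, and 6 on day 7 (0.122% and 13.3% of all probes). Normexp with quantile normalisation gave 5 genes on day 2 and 3 on day 14, where all probes went to 2.93% and 2.42%, and a day 7 median of 0.18. With no filter on dim probes, and with the mean of all probes, day 14 had 0. Fitting only the days compared gave 1 on day 2, 4 on day 7, 0 on day 14 and 0 from day 2 to day 7 (1.18%, 5.6%, 0.0% and 0.0% of all probes). Array weights gave 13 on day 2, 10 from day 2 to day 7, 5 from day 7 to day 14, 19 from day 2 to day 14 and 24 over the 4 days, with a day 14 median of 0.16; it called 15.1%, 30.3%, 28.1%, 46.3% and 61.5% of all probes in these comparisons, so that the counts from day 2 to day 7 and from day 7 to day 14 are below the share over the array. By the file links, 0 genes were called in every comparison of days. Of all probes, these links called 0.707% on day 14, 0.641% from day 7 to day 14 and 0.578% from day 2 to day 14. The table's names called 0.116%, 0.146% and 0.0% in those comparisons. By the file links the medians were 0.02 on day 7 and 0.01 on day 14. The day 7 changes turned sign for MCM10 (-1.24), PRIM1 (0.67), RRM2 (-0.11), TYMS (0.21) and UHRF1 (-0.86). The cause was not tested where none is given. Signal over background limits CDC6, GINS4, UHRF1 and ORC1L on day 0, and 3 cows limit every test.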

Other observations

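For ORC6L, cow 3 read 0.60 on day 0 and 1.19 on day 14 but 2.16 on day 2 and 2.27 on day 7, against 0.16 and 0.31 on day 2 and 0.11 and 0.55 on day 7 in cows 1 and 2, and its other probes showed cow 3 highest on both days too. The GINS2 probes gave 1.62 and 1.70 on day 2, and each of 3 cows was above its day 0 level.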
